A study of Mus musculus with 28 samples.

Results

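The miR-15/16 family was followed through small RNA sequencing of alveolar macrophages (AM), the phagocytes that clear the air spaces of the lung, from mice exposed to filtered air (FA) or ozone (O3). Its 4 members were the rows named mmu-mir-15a-5p, mmu-mir-15b-5p, mmu-mir-16-5p and mmu-mir-195a-5p (below without the species prefix), chosen by name and not by their values, out of 607 miRNAs listed in the 4 tables of the series. All 16 member rows, 4 in each of the 4 tables, were listed. The tables held 28 libraries in 8 groups: co-ex females, co-ex males, KO females and KO males, each after FA and after O3, with 4 libraries per co-ex group and 3 per KO group.

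KO mice lacked surfactant protein A (SP-A), a lung collectin that binds microbes and acts on AM. The co-ex mice carried both human SP-A genes, SP-A1 and SP-A2 (variants 6A2/1A0), on this same C57BL/6J SP-A KO background, so none of the 8 groups had mouse SP-A, and no group of wild-type mice was analysed here. All mice were 12 weeks old, were exposed for 3 h, and gave AM after 4 h of recovery. The study states that the females were synchronised for the estrous cycle.

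MicroRNAs guide Argonaute proteins to messenger RNAs, mainly by pairing of the seed, the bases near their 5′ end, and so lower the output of their targets. Members of the miR-15/16 family share one seed and are known as brakes on the cell cycle and on survival, with cyclins and the anti-apoptotic protein BCL2 among their targets. In mammals they are made from clusters in which a miR-15 type hairpin lies beside a miR-16 type hairpin, and the cluster within Dleu2 corresponds to a region often deleted in chronic lymphocytic leukaemia.

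The mature sequences are shown because the shared seed defines the family and because the bases that follow it decide whether reads of different members can be told apart. They are RefSeq sequences (GRCm38.p6), 5′ to 3′, with the seed (bases 2 to 8) in capitals.
miR-15a-5p: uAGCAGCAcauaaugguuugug
miR-15b-5p: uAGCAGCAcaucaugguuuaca
miR-16-5p: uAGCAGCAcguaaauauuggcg
miR-195a-5p: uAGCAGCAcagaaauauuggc
miR-497a-5p: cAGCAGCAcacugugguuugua
miR-322-5p: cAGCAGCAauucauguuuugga
miR-503-5p: uAGCAGCGggaacaguacugcag

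Among all listed miRNAs with a RefSeq sequence (517 of 607 names), 6 held this seed: the 4 members and the relatives miR-497a-5p and miR-322-5p. The sequence of miR-503-5p, which is made beside miR-322, differs from it at the last base of the seed. The closest pair was miR-16-5p and miR-195a-5p, identical at 19 of 21 bases and differing by G10A and U11G, counted from the 5′ end with the base of miR-16-5p first. A misread or mismapped read of the abundant miR-16-5p could therefore be counted as miR-195a-5p, and the settings of the authors' counting that would govern this were not given in the sources used here. The 2 miR-15 forms were identical at 18 of 22 bases, and miR-15a-5p and miR-16-5p at 16 of 22.

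The 4 members came from 5 hairpins at 3 loci. Mir15a (chr14:61632027-61632110, minus strand) lay in an intron of the long non-coding RNA gene Dleu2, and Mir16-1 (chr14:61631880-61631972, minus strand) overlapped an exon of a Dleu2 transcript, with 54 bases between both hairpins. Mir15b (chr3:69009772-69009835) and Mir16-2 (chr3:69009902-69009996), both on the plus strand and 66 bases apart, lay in introns of Smc4, which codes for a condensin subunit that compacts chromosomes. Mir195a (chr11:70235042-70235135, plus strand) followed Mir497 after 241 bases, with no host gene in the annotation. The mature miR-16-5p of Mir16-1 and of Mir16-2 is the same sequence, so its reads cannot be assigned to either locus, whereas the opposite arms can be told apart and are shown here for that reason, again with bases 2 to 8 in capitals.
miR-16-1-3p: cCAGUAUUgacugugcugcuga
miR-16-2-3p: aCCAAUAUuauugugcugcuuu

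Libraries held 41542 to 2082034 reads on miRNAs, with a median of 490152. The deposited values are read counts divided by a size factor, set separately in each table, so values were compared within a table, and levels across tables were taken as RPM, the reads of a miRNA scaled to the library's total on miRNAs. A library with no read of a miRNA still allows up to 3 reads, between 1.04 and 12.9 on the normalized scale, for counting error only. The markers of macrophage and myeloid cells, of which 7 of 9 were listed, were present in every library, but KO male FA replicate 3 stood apart: its macrophage and myeloid markers summed to 66277 normalized units against 149194 to 445103 in the other KO male libraries, its epithelial markers to 43029 against 3392 to 33427, and its fibroblast and muscle markers to 43587 against 1113 to 5733. Fold changes of the members, and the main differences of their ratios, that use this library are given with and without it. Group means, SDs and most shares over all miRNAs are given with it only. Library columns carried JFRm codes, which were lower for all co-ex libraries than for any KO library. Within co-ex, all male codes were lower than all female codes, and within each sex all FA codes were lower than all O3 codes. The highest codes, JFRm137, JFRm138 and JFRm140, were KO female FA replicates 2 and 3 and KO male FA replicate 3, with no O3 library among them. What the codes stand for was not given in the sources used here. Genotype, sex and exposure in co-ex, and in part exposure in KO, thus cannot be told apart from any handling that follows the codes.

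miR-16-5p was the dominant member in every library. It made up 85.8% ± 5.12 (SD, n = 28) of the family's reads, from 73.4% to 95.1%, followed by miR-15b-5p with 11.8% ± 5.01, miR-15a-5p with 2.15% ± 0.767 and miR-195a-5p with 0.261% ± 0.497. By mean RPM, miR-16-5p ranked 14 to 24 among the listed miRNAs of a table, miR-15b-5p 52 to 83, miR-15a-5p 118 to 145 and miR-195a-5p 195 to 326. The family as a whole took 0.542% to 3.02% of a library's reads, with a median of 1.48%.

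**Figure D1:**
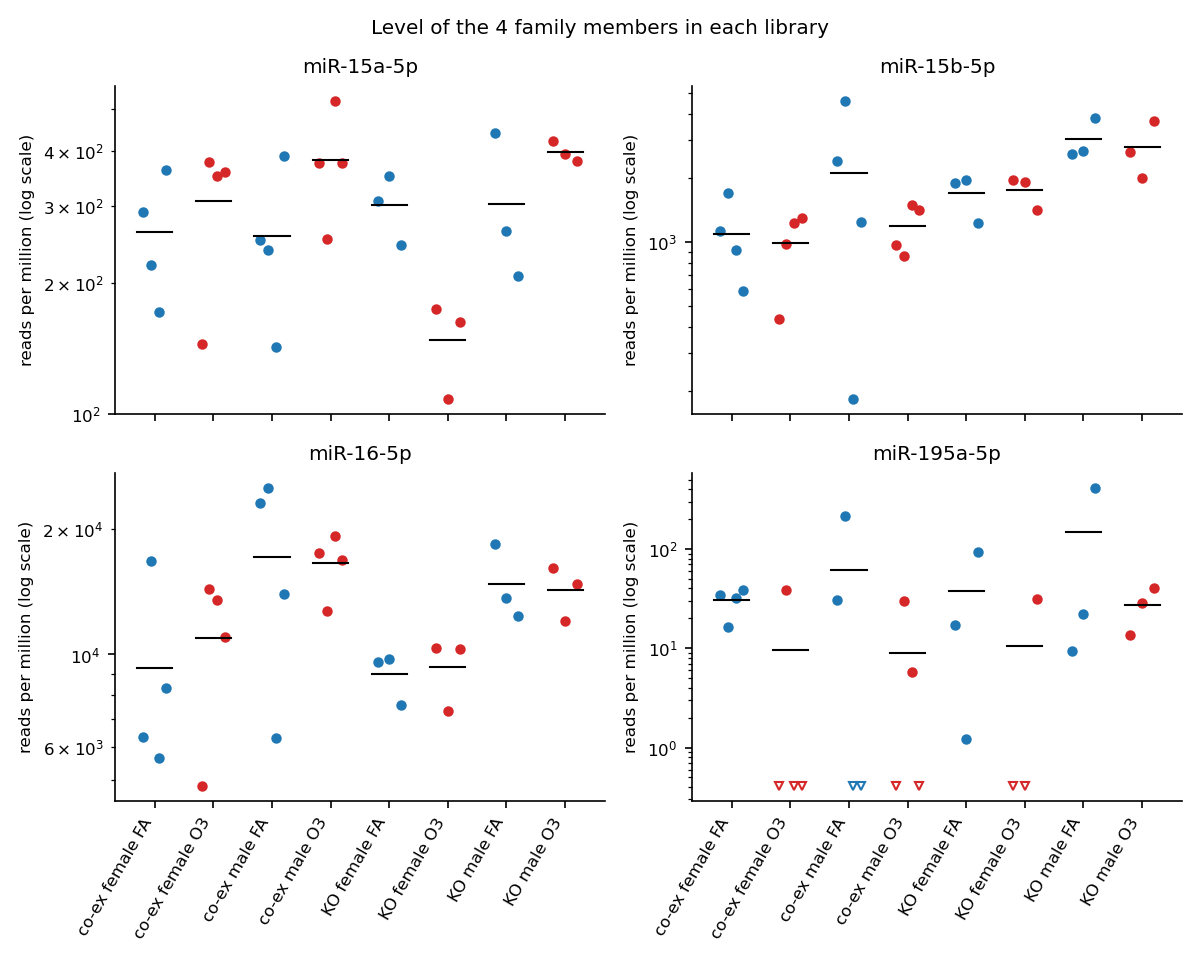
RPM (log scale) of each member in each library, by group, with FA in blue, O3 in red and the group mean as a bar. Open triangles at the bottom are libraries with no read. The mean of KO females after O3 is the lowest of the group means for miR-15a-5p, with libraries at 108 to 174 RPM among which single co-ex libraries also lie, and miR-195a-5p has no read in 9 libraries.

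Among the groups, the level of miR-16-5p was higher in males, at 14308 to 17120 RPM on average, than in females, at 8988 to 10931 RPM. In order, it was 17120 ± 8688 RPM in co-ex males after FA, 16576 ± 2761 in co-ex males after O3, 14789 ± 3176 in KO males after FA and 14308 ± 2058 in KO males after O3 (SD, n = 4 in co-ex and n = 3 in KO). Females followed with 10931 ± 4299 in co-ex after O3, 9330 ± 1726 in KO after O3, 9272 ± 5143 in co-ex after FA and 8988 ± 1218 in KO after FA. Neighbours in this order lay closer to each other than their spread.

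miR-15b-5p was highest in KO males, at 3044 ± 694 RPM after FA and 2781 ± 864 after O3, and lowest in co-ex females after O3, at 985 ± 391. Between these lay co-ex males after FA with 2109 ± 1895, KO females with 1756 ± 302 after O3 and 1691 ± 399 after FA, co-ex males after O3 with 1185 ± 315 and co-ex females after FA with 1085 ± 470. The wide spread of co-ex males after FA came from replicate 3 with 182 RPM and replicate 2 with 4604 RPM.

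miR-15a-5p lay between 255 and 399 RPM on average in 7 of the 8 groups and at 148 ± 35.1 RPM in KO females after O3. The highest means were those of males after O3, 399 ± 22.3 RPM in KO and 381 ± 111 RPM in co-ex. The remaining means ran from 307 ± 109 in co-ex females after O3 through 303 ± 122 in KO males and 301 ± 53.9 in KO females after FA to 261 ± 83.7 in co-ex females and 255 ± 102 in co-ex males after FA, and neighbours among these did not differ beyond their spread.

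In KO females, all O3 libraries held less miR-15a-5p than any FA library. The normalized values were 174, 209 and 127 after FA and 87.4, 51.7 and 79.5 after O3. These values rested on 309, 286 and 182 reads after FA and on 103, 12 and 103 reads after O3, so the lowest one came from a shallow library of 111080 reads. The log2 fold change, on the scale of log2(value + 1) as for all fold changes within tables, was -1.22 (SE 0.53, 95% interval -2.44 to 0.0012) and did not pass the threshold of an adjusted p of 0.1 in limma (unadjusted p = 0.0502, adjusted p = 0.193). Without the shallow library, KO female O3 replicate 2, it was -0.99 (SE 0.51, adjusted p = 0.356, limma). Of the 319 miRNAs tested in KO females 13.2% were called in limma, and 12.2% had O3 libraries all below the FA libraries.

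The groups overlapped for the other abundant members in KO females. miR-16-5p, in the same Dleu2 cluster and in the Smc4 cluster, had normalized values of 5437, 5820 and 3944 after FA and 5218, 3510 and 5042 after O3 (log2 fold change -0.14, SE 0.26, adjusted p = 0.784, limma). miR-15b-5p had 1073, 1159 and 640 after FA and 983, 913 and 690 after O3 (log2 fold change -0.12, SE 0.33, adjusted p = 0.883, limma). The FA and O3 libraries overlapped for both, and 0 of the 4 members were called. With values scaled to the library total instead, the log2 fold changes of miR-16-5p and miR-15b-5p were 0.05 and 0.07 and that of miR-15a-5p -1.03.

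In the same libraries, 11 of 12 epithelial markers exceeded all FA libraries in every O3 library, with summed values of 1003 to 2502 after FA and 11004 to 18228 after O3, and 1 of the 12 had no read in any FA library. The summed macrophage and myeloid markers were 91931 to 115913 after FA and 66709 to 89152 after O3, with 2 of the 7 listed lower in every O3 library. Of all 319 miRNAs tested in KO females, 61 were higher in every O3 library and 39 were lower. Fewer macrophages among the cells and less of a miRNA per macrophage cannot be told apart in bulk libraries, and the part of these markers in the miR-15a-5p values was not tested.

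In KO males, the values of miR-15a-5p were 625, 348 and 303 after FA and 497, 455 and 464 after O3, and overlapped (log2 fold change 0.22, SE 0.44, adjusted p = 0.967, limma; 0.02 without FA replicate 3). miR-16-5p had 26090, 18114 and 18091 after FA and 18922, 13888 and 18074 after O3 (log2 fold change -0.28, SE 0.30, adjusted p = 0.952; -0.37 without FA replicate 3). miR-15b-5p had 3695, 3566 and 5631 after FA and 3105, 2298 and 4535 after O3 (log2 fold change -0.40, SE 0.40, adjusted p = 0.952; -0.19 without FA replicate 3). The FA and O3 libraries overlapped for all 4 members, while 12.7% of 440 miRNAs had libraries that did not, and 0 members were called, where 0.909% of all were. Without FA replicate 3 the members called stayed at 0, while the calls over all miRNAs went from 4 to 86.

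In co-ex females, the values of miR-15a-5p were 44.7, 37.0, 27.9 and 51.2 after FA and 24.1, 58.4, 51.5 and 57.6 after O3 (log2 fold change 0.20, SE 0.60, adjusted p = 0.953, limma). The lowest value after O3 belonged to the shallowest library of the series, with 41542 reads, and the other 3 O3 libraries lay above all FA libraries. miR-16-5p had 972, 2841, 922 and 1176 after FA and 808, 2222, 1985 and 1775 after O3 (log2 fold change 0.27, SE 0.47, adjusted p = 0.908), with FA replicate 2 high and O3 replicate 1 low. miR-15b-5p had 173, 288, 150 and 83.1 after FA and 72.4, 152, 181 and 208 after O3 (log2 fold change -0.15, SE 0.51, adjusted p = 0.965). Both groups overlapped for all 4 members, while 4.06% of 271 miRNAs had groups that did not, and 0 of the 4 were called, against 0.369% of all tested.

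In co-ex males, the values of miR-15a-5p were 96.4, 79.1, 49.0 and 104 after FA and 133, 92.3, 195 and 120 after O3, with O3 replicate 2 the only one of the O3 libraries inside the FA range (log2 fold change 0.71, SE 0.47, adjusted p = 0.944, limma). miR-16-5p had 8887, 8354, 2172 and 3713 after FA and 6193, 4682, 7182 and 5349 after O3 (log2 fold change 0.22, SE 0.46, adjusted p = 0.944). miR-15b-5p had 927, 1531, 62.7 and 330 after FA and 343, 317, 555 and 452 after O3 (log2 fold change -0.03, SE 0.81, adjusted p = 0.98). The FA libraries fell into high and low values for miR-16-5p and miR-15b-5p. The O3 libraries lay between them, except O3 replicate 2, which for miR-15b-5p was just below FA replicate 4. No member had groups apart, as 2.88% of 312 miRNAs did. Of the 3 members tested 0 were called, as were 0.0% of all, with 11 under an unadjusted p of 0.05 in limma and 0 called by DESeq2.

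**Figure D2:**
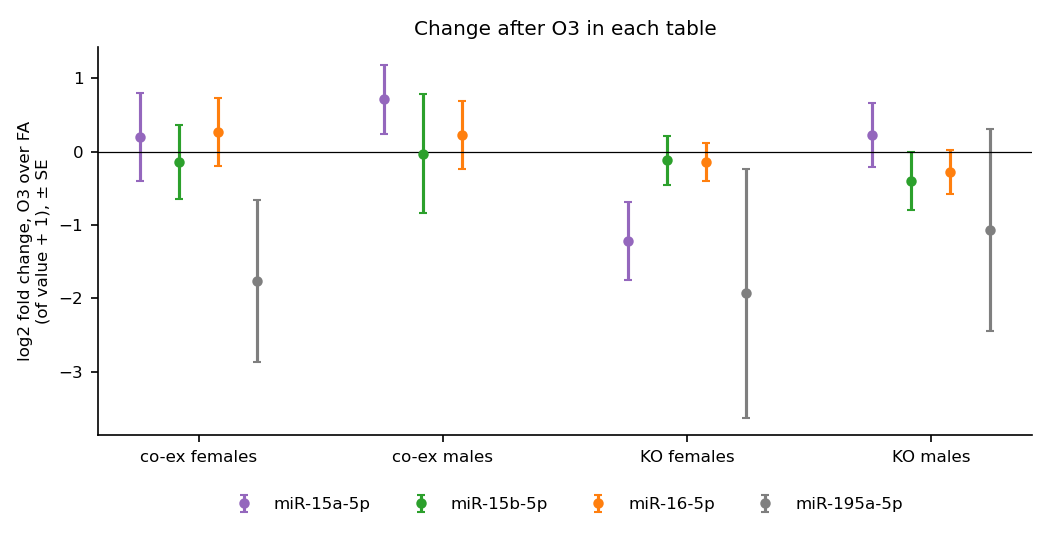
Log2 fold change of O3 over FA with its SE for each member in each table, from limma on log2(value + 1). The change of miR-16-5p and of miR-15b-5p stays within 0.4 of 0 in all tables, miR-15a-5p is at -1.22 in KO females and above 0 in the other tables, and miR-195a-5p, which was not tested in co-ex males, has the longest error bars.

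Averaged over the 4 tables, the members that passed the filter on low values in each showed no response to O3 that passed the test. The log2 fold change was -0.02 (SE 0.22, 95% interval -0.48 to 0.44) for miR-15a-5p, 0.02 (SE 0.22, -0.44 to 0.47) for miR-16-5p and -0.17 (SE 0.34, -0.87 to 0.52) for miR-15b-5p. Without KO male FA replicate 3 these were -0.072, -0.0056 and -0.12, so that of miR-16-5p changed sign. Of these 3, 0 were called in limma, where 20% of 230 miRNAs were.

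Whether the response to O3 differed between tables was tested as a difference of fold changes. For miR-15a-5p the response of KO males exceeded that of KO females by 1.44 on the log2 scale (SE 0.61, 95% interval 0.11 to 2.78, unadjusted p = 0.0366, adjusted p = 0.758, limma), and by 1.24 without KO male FA replicate 3. The response of co-ex females exceeded that of KO females by 1.42 (SE 0.77, -0.22 to 3.06, adjusted p = 0.364), and those of co-ex males exceeded co-ex females by 0.51 (SE 0.69, adjusted p = 0.968) and KO males by 0.49 (SE 0.62, adjusted p = 0.949; 0.70 without KO male FA replicate 3). No member was called in these 4 comparisons, in which 0.0%, 0.0%, 8.71% and 0.0% of 309, 249, 241 and 305 miRNAs were called for KO males against KO females, co-ex males against co-ex females, co-ex females against KO females and co-ex males against KO males. In the 3 comparisons with no call, 17, 8 and 6 miRNAs had an unadjusted p under 0.05, miR-15a-5p in KO males against KO females among them.

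A ratio of reads between members within a library does not depend on the library's scaling. Log2 ratios were taken on value + 1, which makes them depend on scaling where a member has few or no reads. Reads of miR-15a-5p per 100 reads of miR-16-5p were 3.21, 3.6 and 3.22 in KO females after FA and 1.68, 1.47 and 1.58 after O3, with means of 3.34 ± 0.222 and 1.58 ± 0.102 (SD, n = 3). The 1.47 of KO female O3 replicate 2 rested on 12 reads of miR-15a-5p and 815 of miR-16-5p, and the SD need not reflect its counting error. In KO males the reads per 100 were 2.39, 1.92 and 1.67 after FA and 2.63, 3.28 and 2.57 after O3, with means of 2.00 ± 0.366 and 2.82 ± 0.392. The ratio thus had no overlap between exposures in either sex, and lay in opposite directions: the log2 ratio after O3 minus that after FA was -1.07 for the females and 0.51 for the males, with p = 0.1 for each (exact permutation test, two-sided), the smallest that 3 against 3 libraries can give. Without KO male FA replicate 3 the value for the males was 0.39, still with no overlap. The summed epithelial markers were 3392, 3878 and 43029 in KO males after FA and 26702 to 33427 after O3. Of the 12, 3 were higher in every O3 library, as were 34 of all 440 miRNAs tested. As in KO females, the part of these markers in the ratio was not tested.

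**Figure D3:**
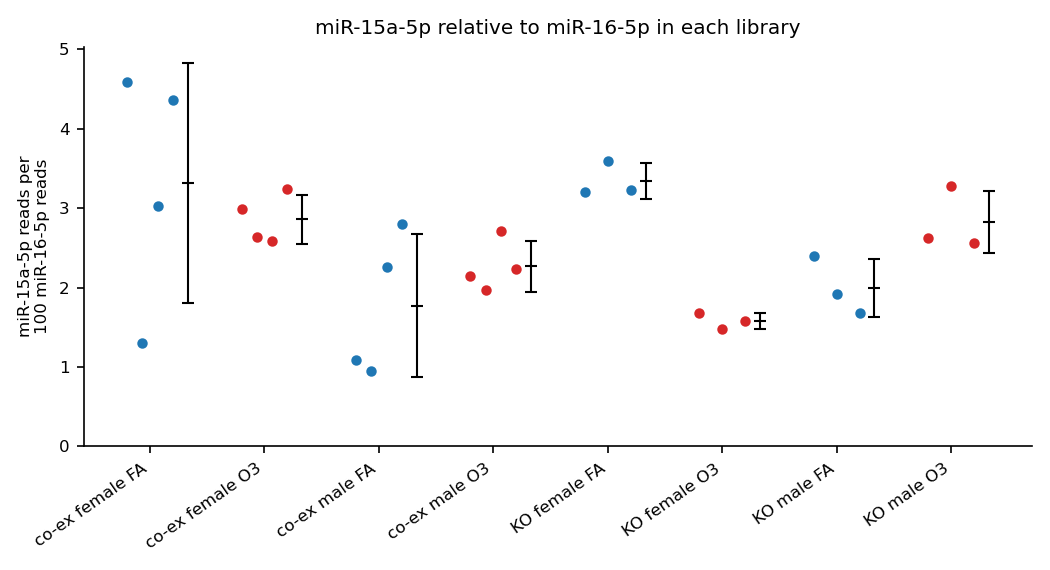
Reads of miR-15a-5p per 100 reads of miR-16-5p in each library, by group, with FA in blue and O3 in red, and the mean ± SD beside the points. The mean of KO females is 3.34 after FA and 1.58 after O3 and that of KO males 2.00 and 2.82, with no overlap in either, while the co-ex groups overlap.

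The co-ex ratios overlapped in both sexes. They were 4.59, 1.30, 3.03 and 4.36 in co-ex females after FA and 2.99, 2.63, 2.59 and 3.24 after O3, and 1.08, 0.947, 2.26 and 2.80 in co-ex males after FA and 2.14, 1.97, 2.71 and 2.24 after O3. Among 308 miRNAs that passed the filter in both KO tables, miR-15a-5p was the 1 (0.325%) whose ratio to miR-16-5p was lower in every O3 library of KO females and higher in every O3 library of KO males, and 0.0% showed the reverse. The pattern counted was that of miR-15a-5p itself, so the count includes it by construction and is a description only. Within KO females alone 9.43% of 318 had a ratio to miR-16-5p that was lower in every O3 library, and within KO males 10% of 439 had one that was higher in every O3 library.

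The difference between the sexes in this response, tested after it had been seen, was 1.58 on the log2 scale, with an exact permutation p of 0.005, the smallest that 400 relabellings within the tables can give. No overlap in opposite directions in both tables must give this p, so it adds nothing to that pattern. Adjusted over the 24 differences between tables computed for the 6 ratios among members, it was 0.12 and did not pass the threshold. Leaving out each library in turn kept it between 1.46, without KO male FA replicate 3, and 1.72. The ratio of miR-15a-5p to miR-15b-5p also differed between KO males and KO females, by 1.72 (exact permutation p = 0.03, adjusted p = 0.354), and that of miR-15b-5p to miR-16-5p by -0.14 (p = 0.745, permutation). Without KO male FA replicate 3 these were 1.30 (exact permutation p = 0.07) and 0.16.

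Over the 4 tables together, the ratios among the 3 abundant members showed no change with O3 that passed an exact test permuting exposure within tables. The mean log2 difference was -0.04 for miR-15a-5p to miR-16-5p (p = 0.856, permutation), -0.19 for miR-15b-5p to miR-16-5p (p = 0.339) and 0.15 for miR-15a-5p to miR-15b-5p (p = 0.637). Without KO male FA replicate 3 these were -0.067, -0.12 and 0.049. The reads of miR-15b-5p per 100 of miR-16-5p were 5.54 to 18.3 in 15 of the 16 co-ex libraries and 13.7 to 31.1 in the 12 KO libraries. The remaining library, co-ex male FA replicate 3, had 2.89.

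miR-195a-5p was near the limit of detection in most libraries. In co-ex females it had 4, 8, 3 and 7 reads after FA and 0, 7, 0 and 0 after O3, or 5.26, 2.77, 5.24 and 5.43 against 0, 6.02, 0 and 0 on the normalized scale (log2 fold change -1.77, SE 1.11, adjusted p = 0.778, limma). In KO females it had 17, 1 and 70 reads after FA and 0, 0 and 20 after O3 (log2 fold change -1.93, SE 1.70, adjusted p = 0.564). In co-ex males it failed the filter, with 15, 192, 0 and 0 reads after FA and 0, 13, 3 and 0 after O3. Libraries with no read occurred in 2 of 14 FA libraries and in 7 of 14 O3 libraries.

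In KO males the change of miR-195a-5p rested on 1 library. Its values were 13.2, 29.7 and 607 after FA and 15.8, 32.6 and 49.7 after O3, with a log2 fold change of -1.07 (SE 1.38, adjusted p = 0.952, limma) that turned to 0.55 (SE 0.72, adjusted p = 0.701) without FA replicate 3. The relative miR-497a-5p, made from the neighbouring hairpin and listed in KO males alone, was high in the same library, with 2.03, 7.43 and 101 after FA and 7.34, 0 and 9.73 after O3. In that library miR-195a-5p reached 3.36 reads per 100 of miR-16-5p, against a median of 0.115 over the 28 libraries.

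**Figure D4:**
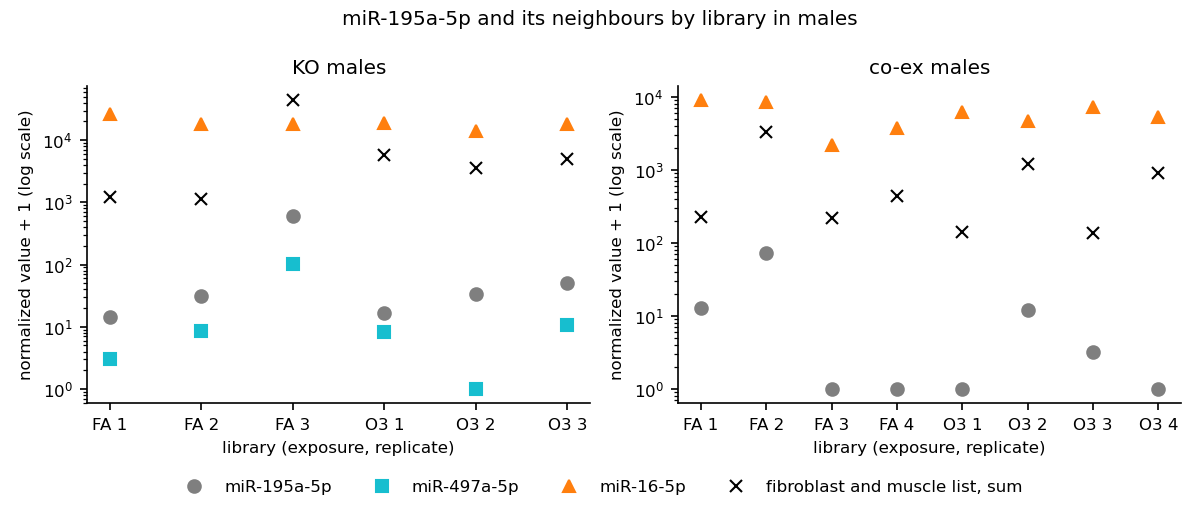
Normalized value + 1 (log scale) of miR-195a-5p, miR-497a-5p and miR-16-5p and the summed fibroblast and muscle markers in each library of KO males (left) and co-ex males (right). KO male FA replicate 3 holds 607 units of miR-195a-5p and 101 of miR-497a-5p and has the highest marker sum, while its miR-16-5p, at 18091, is within the range of the other libraries.

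The fibroblast and muscle markers, of which 7 or 8 of 9 were listed per table, were highest in the library with the most miR-195a-5p in both male tables but not in the female tables. In co-ex males FA replicate 2 had 71.7 units of miR-195a-5p and a marker sum of 3261, against 0 to 11.8 units and sums of 135 to 1194 elsewhere. In co-ex females the highest marker sum, 1672 in O3 replicate 4, came with no read of miR-195a-5p, and the library with the most, O3 replicate 2 at 6.02 units, had a sum of 712. In KO females the highest marker sum, 44274 in O3 replicate 3, came with 15.4 units of miR-195a-5p, below the 48.9 of FA replicate 3, whose sum was 427. The part of these cells in the miR-195a-5p values was not tested.

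Relative to each of the other members, miR-195a-5p was lower after O3 over the 4 tables without passing the threshold. In libraries with no read of miR-195a-5p, these log2 ratios were set by the scaled value of the other member alone. They therefore depend on depth and scaling there. The mean log2 difference was -1.50 to miR-16-5p (exact permutation p = 0.0559, adjusted p = 0.166 over 6 ratios), -1.46 to miR-15a-5p (p = 0.0781, permutation) and -1.31 to miR-15b-5p (p = 0.0831, permutation). Without KO male FA replicate 3 these came down to -1.07, -1.0 and -0.95, each with an adjusted p of 0.346 (exact permutation). The difference to miR-16-5p was -2.04 in co-ex females, -1.37 in co-ex males and -1.79 in KO females. In KO males it was -0.79 with FA replicate 3 and 0.92 without it. The adjusted p of all 3 ratios came under 0.1 when 1 of 4 libraries was left out (co-ex male O3 replicate 2, KO female FA replicate 2, KO female O3 replicate 3 or KO male FA replicate 1), at 0.0916, 0.0826, 0.0681 and 0.0814, and rose to at most 0.381 when others were.

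Because each table had its own scale, the sexes were set against each other by edgeR on recovered reads. Whether the sexes were prepared together was not in the labels, so sex and any handling that differed between their tables cannot be told apart. After O3 in KO, miR-15a-5p was 379 to 423 RPM in males and 108 to 174 RPM in females, without overlap, with a log2 fold change of 1.54 (SE 0.34, unadjusted p = 0.00136, adjusted p = 0.374, edgeR). DESeq2 on the same reads gave 1.48 with an adjusted p of 0.028. miR-16-5p was 12058 to 16096 RPM in males and 7337 to 10364 in females (log2 fold change 0.77, SE 0.30, adjusted p = 0.456, edgeR), and miR-15b-5p 1995 to 3706 and 1408 to 1952 (0.84, SE 0.34, adjusted p = 0.456, edgeR). All 3 were thus higher in every male library, as were 6.34% of 363 miRNAs tested, but 0 of the 4 members and 0.0% of all miRNAs were called, with 31 under an unadjusted p of 0.05 and 7 called by DESeq2.

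After FA in KO, miR-16-5p and miR-15b-5p were again higher in every male library, as were 7.55% of 331 miRNAs. The log2 fold change was 0.78 (SE 0.34, adjusted p = 0.541, edgeR) for miR-16-5p and 0.91 (SE 0.43, adjusted p = 0.541, edgeR) for miR-15b-5p, and 0.79 and 0.59 without KO male FA replicate 3. miR-15a-5p overlapped between the sexes, with 207 to 440 RPM in males and 244 to 352 in females (log2 fold change 0.05, SE 0.56, adjusted p = 0.990, edgeR; 0.18 without KO male FA replicate 3). None of the 4 members and 0.0% of all miRNAs were called in edgeR, with 26 under an unadjusted p of 0.05 and 13 called by DESeq2.

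In co-ex the sexes overlapped for every member tested, while 5.25% of miRNAs after FA and 9.32% after O3 were higher in every male library. After FA the log2 fold change of males over females was 1.25 (SE 0.62, adjusted p = 0.274, edgeR) for miR-16-5p, 1.33 (SE 0.76, adjusted p = 0.342) for miR-15b-5p and 0.28 (SE 0.61, adjusted p = 0.882) for miR-15a-5p. Female FA replicate 2, at 16798 RPM against 5646 to 8315 RPM in the other females, was the highest female library for miR-16-5p, and without it the log2 fold change was 1.83 (adjusted p = 0.0549, edgeR). After O3 the log2 fold changes were 0.71 (SE 0.46, adjusted p = 0.397), 0.36 (SE 0.50, adjusted p = 0.748) and 0.41 (SE 0.55, adjusted p = 0.728) for miR-16-5p, miR-15b-5p and miR-15a-5p. Of the members 0 of 4 were called after FA and 0 of 3 after O3, where 7.1% of 324 and 1.86% of 322 miRNAs were. These shares depended on single libraries: the 23 calls after FA ran from 10 without female FA replicate 1 to 69 without female FA replicate 2, and the 6 after O3 from 0 without male O3 replicate 1 or 3 to 73 without male O3 replicate 2.

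The relatives and opposite arms, fixed as a list, gave no call in any of the 4 comparisons of O3 with FA: 0 of 3 tested in co-ex females, 0 of 5 in co-ex males, and in KO 0 of 4 for females and 0 of 6 for males. Over all miRNAs tested, 0.369%, 0.0%, 13.2% and 0.909% were called in the same order. miR-322-5p had 105, 157 and 108 units in KO females after FA and 88.3, 0 and 78.7 after O3 (log2 fold change -2.67, SE 1.64, adjusted p = 0.391, limma), and the library with no read was the shallow one. miR-503-5p had a log2 fold change of -0.65 in KO females (SE 0.62, adjusted p = 0.582, limma) and -0.42 in KO males (SE 0.44, adjusted p = 0.952, limma; -0.36 without FA replicate 3). miR-16-1-3p, which reports the Dleu2 cluster alone, was 35, 0 and 15.4 units in KO females after FA and 49.2, 12.9 and 17 after O3, where the groups overlapped. miR-15b-3p, from the Smc4 cluster, was 66.6, 13.2 and 23.0 after FA and 44.1, 21.5 and 27.0 after O3.

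Likeness between miRNAs was measured by the SD of their log2 ratio within groups over the 28 libraries, among the miRNAs that passed the filter in all 4 tables. The steadiest partners of miR-16-5p were let-7f-5p (SD 0.262), miR-29a-3p (SD 0.314) and let-7a-5p (SD 0.342), with miR-15a-5p in place 8 of 229 (SD 0.464) and miR-15b-5p in place 24 (SD 0.580), against a median SD of 1.19. For miR-15b-5p the steadiest partner was miR-16-5p (SD 0.580), before miR-191-5p (SD 0.619) and miR-93-5p (SD 0.644). miR-15a-5p lay closest to miR-1839-5p (SD 0.433), miR-103-3p (SD 0.436) and miR-27a-3p (SD 0.443), with miR-16-5p in place 7 and miR-15b-5p in place 69.

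Among the miRNAs ranked, which passed the filter in all 4 tables, none was a close partner of miR-195a-5p. Its neighbour miR-497a-5p, listed in KO males alone, was not ranked. miR-195a-5p had at most 20 reads in 21 of 28 libraries, so its SDs include counting error at few reads. Its steadiest ratios, to miR-30a-3p (SD 1.48), miR-143-3p (SD 1.54) and let-7b-3p (SD 1.55), varied more than the median ratio of the other members, and miR-16-5p came in place 48 of 230. Within groups the log2 value itself had an SD of 0.444 for miR-15a-5p, 0.582 for miR-16-5p, 0.923 for miR-15b-5p and 2.04 for miR-195a-5p. These SDs share the libraries and their depth, and are descriptions.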

How the data were processed

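Small RNA of alveolar macrophages was sequenced in 28 libraries of 8 groups, grouped by their GEO labels, which do not say that replicates of a group were prepared apart, so p-values measure the spread between these libraries. According to the study's methods, the authors trimmed reads with the FASTX-Toolkit, counted miRNAs with Chimira and found differentially expressed miRNAs with edgeR and TCC. The deposited tables carry DESeq2 in their names, but the method behind the size factors and the genome build were not stated in the sources used here. The deposited values are a signal, the read count of each miRNA divided by a size factor, set separately in each of the 4 tables. In every library 100% of values were whole multiples of one step (within 0.02 reads), so the read counts were recovered. Further deposited columns were left out: for O3 against FA these hold the authors' q-value, p-value and log2 fold change, beside a score that orders miRNAs by significance. The mean over all libraries of a table was left out as well.

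For O3 against FA within a table, limma (trended prior) was fitted to log2(value + 1). A miRNA was kept if its value reached 5 in a number of libraries equal to the smaller group, and p-values were adjusted by Benjamini-Hochberg over all miRNAs kept, with a threshold of 0.1. Differences between tables used limma contrasts. Sexes were compared by edgeR's quasi-likelihood test with TMM on recovered reads, keeping miRNAs that reached 5 CPM in a number of libraries equal to the smaller group. The SE given with edgeR was not estimated directly. It is the absolute log2 fold change divided by the square root of the F statistic. Ratios, as differences of log2(value + 1), were tested by exact two-sided permutation of exposure within tables. Alternatives were total-count scaling, no filter, a pseudocount of 0.1, edgeR or DESeq2, the replicate number as a block, and libraries left out. The comparisons within a table by limma, edgeR and DESeq2 were tried on simulated counts, and the permutation within tables on made-up cases. The contrasts across tables, the comparisons of the sexes and the permutation of differences between tables were not. The members, lists, tests and named miRNAs were chosen with earlier results of these data known. The named miRNAs are the members, listed miRNAs with their seed, miR-503-5p, the opposite arms, and the 3 with the steadiest ratio to each member. Versions were limma 3.58.1, DESeq2 1.42.0 and edgeR 4.0.16 under R 4.3.3, and numpy 2.4.6, matplotlib 3.10.9 and pandas 2.3.3 under Python 3.11.15.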

Additional observations from a re-analysis of the deposited data

Results flagged for a closer look

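Among 28 sets of 4 co-ex libraries looked at for a library far from the other 3, 4 held one. The cut-off marks about 1 set in 20 by chance for normally distributed values. Unlogged values near 0 do not meet this condition, so the count is a description only. miR-16-5p stood at 2841 normalized units in co-ex female FA replicate 2, against 922 to 1176 in the other libraries of its group. miR-195a-5p stood apart in 3 groups: at 2.77 in co-ex female FA replicate 2 among values of 5.24 to 5.43, at 6.02 in co-ex female O3 replicate 2 among libraries with no read, and at 71.7 in co-ex male FA replicate 2 among values of 0 to 11.8. The value of 2.77 rested on 8 reads, against 3 to 7 in the other libraries of that group, and the value of 6.02 on 7 reads. Groups of 3 were not looked at in this way.

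The log2 ratio of miR-15a-5p to miR-16-5p lay in opposite directions after O3, at -1.07 relative to FA in KO females and 0.51 in KO males, with every library on the side of its group. The difference of 1.58 between them was tested after it had been seen. Its exact permutation p of 0.005 is the value that no overlap in opposite directions must give, and so adds nothing to that pattern. It became 0.12 after adjustment over 24 differences and did not pass the threshold.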

How the results depend on the processing

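The number of members called stayed at 0 in all 4 comparisons of O3 with FA, in their average and in the 4 differences of the response under every alternative run. It became 1 in 2 comparisons of the sexes: in KO after O3 with DESeq2, and in co-ex after FA without co-ex female FA replicate 2 (range 0 to 1 over the libraries left out). The ratios called ranged from 0 to 3 over the libraries left out. Of 495 values of single members under an alternative, 452 kept their direction and side of the threshold and 41 changed direction, each to a value smaller than its SE, and the cause was not tested.

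Direction changed in the following cases. Total-count scaling gave log2 fold changes of 0.069 for miR-15b-5p and 0.045 for miR-16-5p in KO females, 0.062 for miR-15a-5p averaged over the tables and -0.031 for miR-15a-5p in co-ex males against females after FA. edgeR gave -0.069 for miR-16-5p in co-ex males, no filter gave -0.016 for miR-15a-5p in KO males against females after FA, and leaving out the KO FA libraries with the latest codes gave 0.55 for miR-195a-5p in KO males.

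Over the libraries left out in turn, the change with O3 ran from -0.45 to 0.18 for miR-15b-5p in co-ex females, -0.93 to 0.60 for miR-15b-5p and -0.17 to 0.51 for miR-16-5p in co-ex males, -0.39 to 0.040 for miR-15b-5p and -0.32 to 0.038 for miR-16-5p in KO females, and -2.16 to 0.55 for miR-195a-5p in KO males. Averaged over the tables it ran from -0.077 to 0.058 for miR-15a-5p and -0.082 to 0.11 for miR-16-5p. miR-15a-5p in KO males against females after FA ran from -0.26 to 0.24, and the ratios of miR-15a-5p to miR-16-5p and to miR-15b-5p over the tables from -0.14 to 0.030 and from -0.0027 to 0.32.

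Deviations of same-numbered replicates had weak correlations, from -0.276 to 0.233. Some exceeded the 0.1 set as the smallest that pairs replicate numbers, but in no table did all. The libraries were therefore not paired in the main tests. With so few libraries per group, this cannot show whether the numbers stand for shared handling. With the replicate number as a block, miR-15a-5p in KO females kept a log2 fold change of -1.22 (adjusted p = 0.343, limma), no member was called, and the calls over all miRNAs went from 4 to 1 in KO males, from 23 to 51 for the sexes in co-ex after FA and from 6 to 47 after O3.

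Calls over all miRNAs also moved by more than 1.5 times with DESeq2, to 15 in KO males and to 61, 59, 13 and 7 for the sexes in co-ex after FA, co-ex after O3, KO after FA and KO after O3, with edgeR to 2 in KO males, without the filter to 10 for the sexes in co-ex after O3, and with total-count scaling from 21 to 32 for co-ex females against KO females. With single libraries left out they ran from 0 to 86 in KO males, 25 to 52 in KO females and 9 to 31 for co-ex females against KO females. Depth limits miR-195a-5p most, with at most 20 reads in 21 of 28 libraries.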

Other observations

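miR-15a-3p, the opposite arm of the miR-15a hairpin, was listed in KO females alone, with no read in the 3 FA libraries and 5.09, 60.3 and 1.54 normalized units in the O3 libraries. These rested on 6, 14 and 2 reads, the 14 in the shallow library of 111080 reads. An FA library with no read still allows 1.69 to 2.20 units, which is above the 1.54. It failed the filter on low values and was not tested. Of the 319 miRNAs tested in KO females, 61 were higher in every O3 library. miR-195a-3p was listed in KO males alone, at 23.9 units in FA replicate 3 and at most 5.01 in the other libraries.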
